A study of Mus musculus with 6 samples.

Results

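The cornified envelope is the insoluble protein shell that replaces the plasma membrane of a keratinocyte in the outer layers of the epidermis. Transcripts of 45 genes that code for its building blocks were followed here in skin wounds of diabetic mice. They were all genes of the deposited table with a mouse protein-coding symbol beginning with Sprr (14 genes) or Lce (21 genes), joined by 10 further genes of the envelope and its assembly, Lor, Ivl, Flg, Flg2, Rptn, Hrnr, Tgm1, Tgm3, Cdsn and Casp14. The table held 33184 genes in all. The study asked what lowering SFRP2, a secreted modulator of Wnt signalling, does to diabetic wounds, and SPRR1B was one of the genes it examined in human foot ulcers.

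The tissue was wounded dorsal skin of db/db mice, a line without a working leptin receptor that becomes obese and diabetic, and all libraries compared carry this genotype. A round wound of 6 mm was cut through epidermis and dermis, siRNA was injected around it at dpi1 (1 day post-injury), and the wound tissue was taken at dpi4, although the sample titles carry day 3. The 3 libraries labelled NC received control siRNA and the 3 labelled SFRP2-siRNA received siRNA against Sfrp2. The age and sex of the mice were not given in the labels, and no label states that each library came from a separate mouse, so the p-values measure only the spread between these libraries. The treated samples are numbered like the 3 SFRP2 siRNA sequences of the study's supplement, so a sequence and a library cannot be told apart if each library received its own.

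Keratinocytes that leave the basal layer cross-link small proline-rich (SPRR) proteins, late cornified envelope (LCE) proteins, involucrin and loricrin beneath the membrane through transglutaminases. Loricrin and the LCE1 proteins belong to the mature envelope of resting skin. SPRR1, SPRR2 and LCE3 genes are known for their induction where the barrier is injured, irritated or inflamed. Most of these genes sit side by side in the epidermal differentiation complex, and 41 of the 45 lay within chr3:92080271-93399442 (GRCm38, GENCODE vM21), a stretch of 1.32 Mb that held every SPRR and LCE gene and 6 of the 10 others.

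Promoter windows of these genes were read from RefSeq (GRCm38.p6, 250 bases before to 50 after each start), and 44 of the 45 genes had one; Lce1f had none. The windows were searched on both strands for TGANTCA, letters known from AP-1 (Jun and Fos dimers), and for TATAAA, known from the TATA box. These letters cannot overlap. The search was chosen after SPRR2 genes and LCE1 genes were seen to differ in which libraries they were high. The start used for Sprr4 is the first base of an ATG in a gene model of 231 bases, so its window may not be a promoter. The 200 bases before the start are shown 5′ to 3′ on the gene's strand for 7 genes that carry the results below, with TGANTCA and TATAAA in capitals:
Sprr1a (chr3:92485882-92486081, minus strand): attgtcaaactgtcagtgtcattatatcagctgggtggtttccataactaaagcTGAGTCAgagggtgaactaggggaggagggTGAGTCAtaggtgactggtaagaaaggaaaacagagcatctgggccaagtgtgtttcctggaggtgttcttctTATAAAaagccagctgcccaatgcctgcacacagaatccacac
Sprr2d (chr3:92338940-92339139, plus strand): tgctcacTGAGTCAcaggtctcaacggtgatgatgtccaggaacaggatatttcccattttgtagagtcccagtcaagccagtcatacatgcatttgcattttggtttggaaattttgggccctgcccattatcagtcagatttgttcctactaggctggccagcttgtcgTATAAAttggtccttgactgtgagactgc
Sprr2i (chr3:92407791-92407990, plus strand): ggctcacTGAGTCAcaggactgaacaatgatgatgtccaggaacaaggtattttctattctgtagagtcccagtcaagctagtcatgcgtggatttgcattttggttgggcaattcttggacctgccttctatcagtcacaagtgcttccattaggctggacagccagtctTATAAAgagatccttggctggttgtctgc
Sprr4 (chr3:92500494-92500693, minus strand): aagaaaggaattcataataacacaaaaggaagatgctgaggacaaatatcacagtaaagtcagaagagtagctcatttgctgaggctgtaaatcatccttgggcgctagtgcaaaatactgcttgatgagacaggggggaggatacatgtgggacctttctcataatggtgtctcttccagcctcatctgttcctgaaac
Lor (chr3:92083143-92083342, minus strand): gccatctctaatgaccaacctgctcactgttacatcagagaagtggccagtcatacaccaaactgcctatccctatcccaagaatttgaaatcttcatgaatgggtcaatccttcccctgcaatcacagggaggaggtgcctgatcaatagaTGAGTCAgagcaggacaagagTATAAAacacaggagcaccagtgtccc
Lce1a1 (chr3:92648308-92648507, minus strand): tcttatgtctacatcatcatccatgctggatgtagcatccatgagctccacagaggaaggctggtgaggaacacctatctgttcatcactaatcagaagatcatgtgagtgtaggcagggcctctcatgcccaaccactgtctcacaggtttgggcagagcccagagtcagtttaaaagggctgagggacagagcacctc
Lce3c (chr3:92944286-92944485, plus strand): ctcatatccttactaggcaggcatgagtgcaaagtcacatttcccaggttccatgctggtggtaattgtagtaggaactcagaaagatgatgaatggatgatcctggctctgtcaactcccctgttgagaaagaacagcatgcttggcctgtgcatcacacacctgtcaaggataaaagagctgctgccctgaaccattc

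TGANTCA was found in 9 of 14 SPRR windows, in 0 of 20 LCE windows and in 5 of the 10 other envelope genes (Lor, Ivl, Flg, Flg2 and Rptn), against 7.81% of 32851 windows of all genes. Of LCE3 genes, which shared the library order of SPRR2 genes given below, 0 of 6 held it. Among SPRR2 genes, 7 of 10 held it, with its first base at position -193 in Sprr2d, Sprr2e and Sprr2i, counted from the start. The 3 without it, Sprr2a1, Sprr2a2 and Sprr2a3, also lacked the TATA letters in the windows taken. Their gene models measured 2883 to 3003 bases, against 609 to 784 for the other SPRR2 genes. The last bases of the Sprr2a1 and Sprr2a2 windows resemble those shortly before TATAAA in Sprr2b. Letters further downstream may therefore have been missed. TATAAA was found in 10 of 14 SPRR, 4 of 20 LCE and 6 of 10 other windows, against 13.6% of all. CACCC and CTTCCT, letters known from KLF and ETS factors, were searched too and are frequent, in 57.5% and 35.4% of all windows. CACCC stood in 7 of 14 SPRR, 8 of 20 LCE and 9 of 10 other windows, and CTTCCT in 7, 10 and 6 of them. Aligned windows of Sprr2d and Sprr2i were 78.2% identical. Pairs of SPRR2 windows had a median identity of 63.1% and pairs of LCE1 windows one of 65.7%, while an LCE1 window and an SPRR2 window had 51.6%. These matches describe letters in a window and no binding was measured. The SPRR counts include Sprr4 and the 3 Sprr2a genes, whose windows may not cover the promoter. A relation between these letters and the levels was not tested.

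Levels are given as FPKM, that is reads divided by the gene's length and by the library's total, so values of different genes are per length. The totals behind the libraries were 42.9 M to 47.1 M reads. The siRNA target went against its label. Its transcript, Sfrp2 (ENSMUSG00000027996), was at 11.6, 40.6 and 14.1 FPKM in NC 1, 2 and 3 but at 50.6, 54.6 and 55.2 FPKM in SFRP2-siRNA 1, 2 and 3. This is a log2 fold change of 1.45 (SE 0.43), so no direction below can be read as an effect of lowered Sfrp2 transcript. Whether labels or columns were exchanged was not tested, and an exchange would turn every direction given here. SFRP2-siRNA 1 stood apart: its 9 markers of hair follicle inner root sheath summed to 24.2 FPKM against 2513 to 5474 FPKM in the other libraries, and its correlation with them was 0.889 to 0.930, against 0.951 to 0.976 among the rest. All fold changes set the libraries labelled SFRP2-siRNA against NC on the log2(FPKM + 1) scale, which understates changes of low genes. With limma, 0 of 16005 genes kept passed an adjusted p under 0.05 and a log2 fold change beyond 1 in either direction (0%), and 1533 had an unadjusted p under 0.05 (9.58%).

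None of the envelope genes passed the test. Of the 45 genes, 44 had a mean of at least 0.5 FPKM, 0 were called, and 3 had an unadjusted p under 0.05, all with lower values in SFRP2-siRNA (Lor, Lce1f and Lce6a), which is 6.82% of the genes against the 9.58% over all genes. Only Lor and Lce1f had groups that did not overlap, both lower, 4.55% of the 44 against 3.92% of all genes. Voom on the recovered reads also called 0 of them. No envelope gene was higher in SFRP2-siRNA without overlap, against 13.9% of all genes. That count over all genes also depended on the scaling, with 2226 of 16005 as deposited and 844 with median-of-ratios scaling. By direction alone 29 of 44 had a lower mean log2 value in SFRP2-siRNA (65.9%), where 28.2% of all genes did. The share over all genes depended on the scaling and was 49.9% with median-of-ratios scaling, under which 32 of the 44 were lower.

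The medians of the gene families, as deposited, were each smaller than the SD between libraries. The median log2 fold change was 0.15 over 13 SPRR genes (8 higher, 5 lower), -0.31 over 21 LCE genes (6 higher, 15 lower) and -0.46 over the 10 other envelope genes (1 higher, 9 lower). The median of all genes was 0.13 as deposited and 0.00034 with median-of-ratios scaling, and relative to it as deposited the families stood at 0.02, -0.43 and -0.58. The SD between libraries of a group, taken over each library's median, was 0.82 for SPRR, 0.33 for LCE and 0.51 for the other envelope genes. The SPRR median lay 0.53 above that of the LCE and other envelope genes together, with an SD of 0.73 for this difference. The SPRR median turned to -0.25 without SFRP2-siRNA 2. After scaling to basal keratinocyte markers it was -0.05, as was the median of all genes. Without SFRP2-siRNA 1 the 3 medians were 0.19, -0.40 and -0.26. With median-of-ratios scaling they were 0.02, -0.47 and -0.60, and the SD between libraries was not taken under that scaling.

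**Figure D1:**
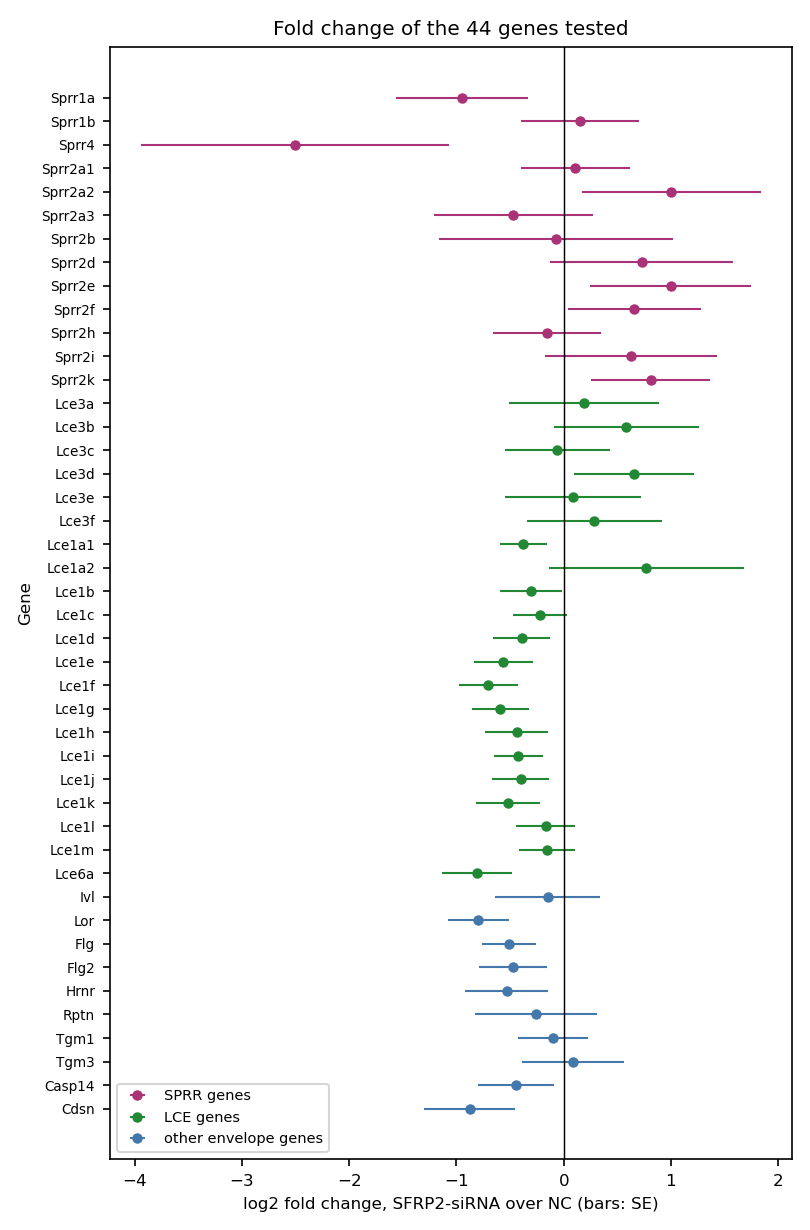
Log2 fold change (SFRP2-siRNA over NC, horizontal axis) of the 44 genes tested, with bars of 1 standard error from limma. SPRR genes spread from -2.51 (Sprr4) to 1.00, 13 of 14 Lce1 genes lie below 0 with Lce1a2 as the exception, and none passed an adjusted p under 0.05.

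Sprr1a was the most abundant SPRR gene. Sprr1a (ENSMUSG00000050359) codes for a cornifin, a cross-linked precursor of the envelope that keratinocytes induce under stress. It had 881.5, 1220 and 1105 FPKM in NC 1, 2 and 3 and 220.5, 1316 and 572.3 FPKM in SFRP2-siRNA 1, 2 and 3. The groups overlapped, with both the highest and the lowest value among the treated libraries. Means were 1069 ± 172 FPKM in NC and 703 ± 559 FPKM in SFRP2-siRNA (SD, n = 3 each), and the log2 fold change was -0.94 (SE 0.62, adjusted p = 0.564, limma). It was -0.29 without SFRP2-siRNA 1.

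Sprr1b, the mouse counterpart of the ulcer gene SPRR1B and a second cornifin, did not follow Sprr1a. It had 194.9, 167.5 and 101.1 FPKM in NC and 214.3, 298.7 and 70.2 FPKM in SFRP2-siRNA. The treated libraries held its highest and its lowest value, and the log2 fold change was 0.15 (SE 0.55, adjusted p = 0.907, limma). Its sign was not stable and turned when NC 3 (-0.13), SFRP2-siRNA 1 (-0.04) or SFRP2-siRNA 2 (-0.28) was left out. The ratio of Sprr1b to Sprr1a was 0.972 in SFRP2-siRNA 1 and between 0.0915 and 0.227 in the 5 other libraries, so that library was low in Sprr1a and not in Sprr1b. Neither gene shared a stretch of 50 bases with another gene.

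Sprr4 varied more than any other envelope gene. SPRR4 is a minor family member that has been linked to the response of skin to ultraviolet light. It had 246.9, 1662 and 1105 FPKM in NC and 13.5, 668.6 and 255.1 FPKM in SFRP2-siRNA, a 123-fold span between libraries. NC 1 lay below 2 of the treated libraries, so the groups overlapped. The log2 fold change was -2.51 (SE 1.44, adjusted p = 0.542, limma) and -0.89 without SFRP2-siRNA 1, the library with few follicle transcripts. Its lowest value rested on 134 reads and its highest on 17990. Its gene model measured 231 bases, the shortest of the 45, so its level against other genes is uncertain.

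SPRR2 genes, a cluster of short envelope precursors, were mostly high in the second library of each group. Sprr2d, the highest of them, had 34.9, 77.4 and 30.1 FPKM in NC and 62.6, 265.5 and 22.5 FPKM in SFRP2-siRNA. SFRP2-siRNA 2 stood above all others and SFRP2-siRNA 3 below all others. The log2 fold change was 0.73 (SE 0.85, adjusted p = 0.698, limma), and -0.20 without SFRP2-siRNA 2. Sprr2i, with the promoter most like that of Sprr2d among the named SPRR2 genes besides Sprr2e, had 15.3, 37.7 and 11.3 FPKM in NC and 20.4, 102.8 and 11.8 FPKM in SFRP2-siRNA. Sprr2e had 7.99, 21.1 and 5.06 FPKM against 14.6, 61.1 and 8.86 FPKM. All 3 genes had the order SFRP2-siRNA 2, NC 2, SFRP2-siRNA 1 from the top, and their log2 fold changes of 0.63 (SE 0.80) and 1.00 (SE 0.75) for Sprr2i and Sprr2e were within the spread between libraries.

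The other SPRR2 genes were less alike. Sprr2h had 26.8, 38.2 and 35.7 FPKM in NC and 33.0, 60.0 and 12.9 FPKM in SFRP2-siRNA, and its log2 fold change was -0.16 (SE 0.51). Sprr2a3 had 42.7, 35.3 and 18.2 FPKM in NC and 21.0, 65.0 and 6.87 FPKM in SFRP2-siRNA, with -0.47 (SE 0.74). Both were highest in SFRP2-siRNA 2 and lowest in SFRP2-siRNA 3. Sprr2b spanned a 111-fold range, from 7 reads in SFRP2-siRNA 3 to 750 in SFRP2-siRNA 2, and Sprr2f, Sprr2k, Sprr2a1 and Sprr2a2 had at most 16.8 FPKM in any library. Sprr2a1 and Sprr2a2 were highest in SFRP2-siRNA 1. Of their 50-base stretches 96.3% and 96.5% also occurred in another gene, and 61.1% for Sprr2a3, so how reads were divided among these 3 near-copies is uncertain. Over the SPRR2 genes 7 of 10 were higher and 3 lower in SFRP2-siRNA, with a median of 0.64, and 5 of 10 were lower with a median of -0.08 without SFRP2-siRNA 2. Sprr3, a cornifin of internal epithelia such as the oesophagus, had 0 to 4 reads per library and was not tested; a count of 0 allows up to 3 reads, 0.0521 to 0.0572 FPKM.

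**Figure D2:**
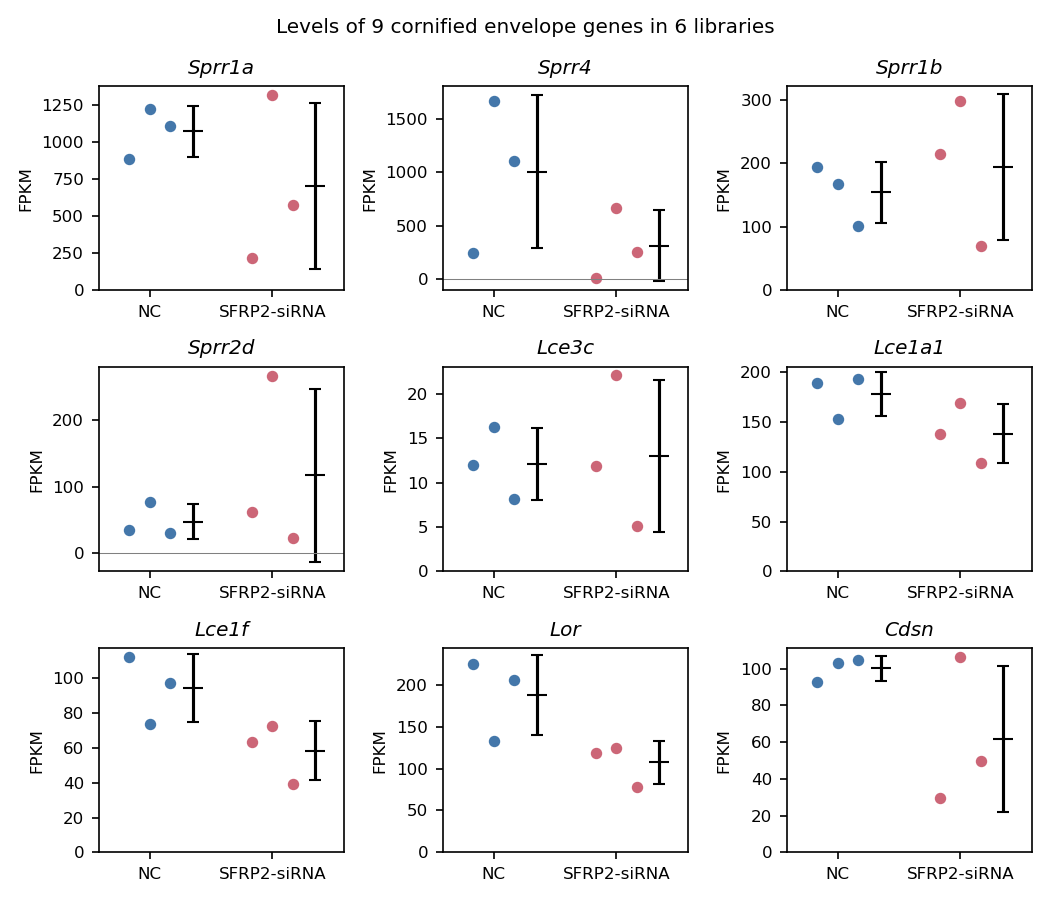
Level (FPKM, linear axis from 0 or below) of 9 genes in NC (blue) and SFRP2-siRNA (red), with libraries 1, 2 and 3 of each group from left to right, and black marks for the mean and SD of 3 libraries. Lor and Lce1f are the genes whose groups do not overlap, and Sprr2d reaches 265.5 FPKM in SFRP2-siRNA 2 against 22.5 to 77.4 FPKM elsewhere.

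LCE1 genes, the glycine- and cysteine-rich envelope proteins of intact epidermis, had a tighter range. Lce1a1, the highest, had 189.4, 152.5 and 192.5 FPKM in NC and 137.3, 168.5 and 108.8 FPKM in SFRP2-siRNA. SFRP2-siRNA 2 lay above NC 2, so the groups overlapped, and the log2 fold change was -0.38 (SE 0.22, adjusted p = 0.544, limma). Lce1f had 111.9, 73.6 and 96.9 FPKM in NC and 63.5, 72.4 and 39.3 FPKM in SFRP2-siRNA. Every NC library was above every treated library, by 73.6 against 72.4 FPKM at the nearest. Its log2 fold change was -0.70 (SE 0.28), with an unadjusted p of 0.0391 and an adjusted p of 0.518 (limma), and an exact permutation test gave p = 0.1, which is the lowest possible value for 3 against 3 libraries.

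The other LCE1 genes leaned the same way. Lce1g (-0.59, SE 0.26), Lce1e (-0.56, SE 0.28), Lce1k (-0.52, SE 0.30), Lce1i (-0.42, SE 0.23), Lce1j (-0.40, SE 0.27), Lce1d (-0.39, SE 0.27), Lce1b (-0.31, SE 0.29), Lce1c (-0.22, SE 0.25) and Lce1m (-0.16, SE 0.26) all had negative log2 fold changes and overlapping groups. Of 14 LCE1 genes 13 were lower, with a median of -0.40, and under every scaling and every omission of 1 library 12 or 13 were lower. The median was -0.20 without SFRP2-siRNA 3, the library where 11 of the 14 were lowest, and -0.59 without NC 2. These genes are not replicates, so the count is not a test. Lce1a2 was the exception, at 5.42, 14.9 and 59.0 FPKM in NC and 71.3, 12.4 and 30.5 FPKM in SFRP2-siRNA. Its ratio to its neighbour Lce1a1 ran from 0.0286 in NC 1 to 0.519 in SFRP2-siRNA 1, a span that did not follow the groups. LCE1 genes shared 0% to 27.1% of their 50-base stretches with other genes, mostly with each other.

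LCE3 genes, which are low in resting skin and known from injured and psoriatic epidermis, behaved otherwise. Lce3c, the highest, had 12.0, 16.3 and 8.12 FPKM in NC and 11.8, 22.2 and 5.09 FPKM in SFRP2-siRNA, and its log2 fold change was -0.06 (SE 0.49). The second library was the highest in both groups. The same held for Lce3a, Lce3b, Lce3d, Lce3e and Lce3f, which had 0.909 to 13.9 FPKM. Their log2 fold changes were 0.09 to 0.66, with standard errors of 0.56 to 0.70. These values rested on 23 to 569 reads, and 12.1% to 49.3% of their 50-base stretches were shared, mostly among LCE3 genes. Lce6a, the only LCE gene outside these families, had 49.6, 28.4 and 32.9 FPKM in NC and 19.9, 30.3 and 13.5 FPKM in SFRP2-siRNA. The overlap came from SFRP2-siRNA 2 and NC 2, and the log2 fold change was -0.81 (SE 0.33, unadjusted p = 0.0441, adjusted p = 0.518, limma).

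The order of libraries within each group separated these families. NC 2 was the highest NC library and SFRP2-siRNA 2 the highest treated library for 7 of 10 SPRR2 genes and 6 of 6 LCE3 genes, but for 0 of 14 LCE1 genes and 2 of the 10 other envelope genes, Flg2 and Rptn. Over all genes kept the share was 6.64%. NC 2 was instead the lowest NC library for 13 of 14 LCE1 genes. This order was noticed in the data and is a description without a test. The summed SPRR2 level divided by the summed LCE1 level, both per length, was 0.127, 0.340 and 0.108 in NC 1, 2 and 3 and 0.211, 0.797 and 0.127 in SFRP2-siRNA 1, 2 and 3. For LCE3 over LCE1 the ratios were 0.0284, 0.0728 and 0.0134 against 0.0399, 0.0962 and 0.0262. Both ratios were highest in SFRP2-siRNA 2 and next highest in NC 2, and the spread inside each group exceeded the difference between groups.

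**Figure D3:**
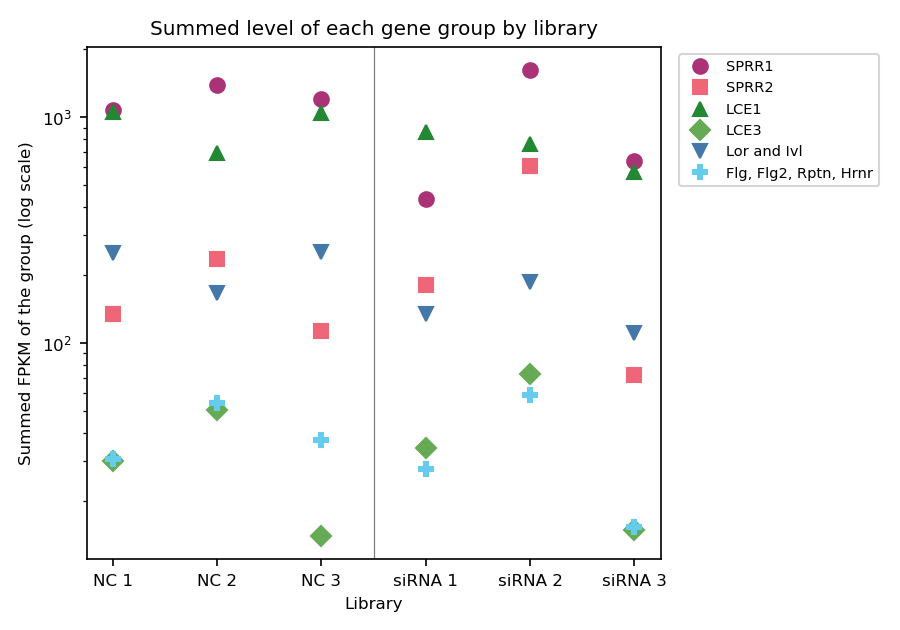
Summed FPKM (log axis) of 6 gene groups in each of the 6 libraries. SPRR2 and LCE3 genes peak in SFRP2-siRNA 2 at 607.2 and 73.2 FPKM, whereas LCE1 genes stay between 570.4 and 1058 FPKM in all libraries.

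The SPRR and LCE3 genes spread widely over the 6 libraries. The difference between the highest and lowest of them on the log2(FPKM + 1) scale had a median of 3.07 over SPRR genes, 2.26 over LCE3 genes, 1.54 over the other envelope genes and 1.13 over LCE1 genes, against 0.60 over all genes. It was above 2 for 12 of 13 SPRR genes, 5 of 6 LCE3 genes and 1 of 14 LCE1 genes, and for 3.98% of all genes. The highest value was in SFRP2-siRNA 2 for 24 of 44 envelope genes and the lowest in SFRP2-siRNA 3 for 25 of 44, both libraries of the same label. In these bulk samples fewer cells of a type and less RNA per cell cannot be told apart.

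**Figure D4:**
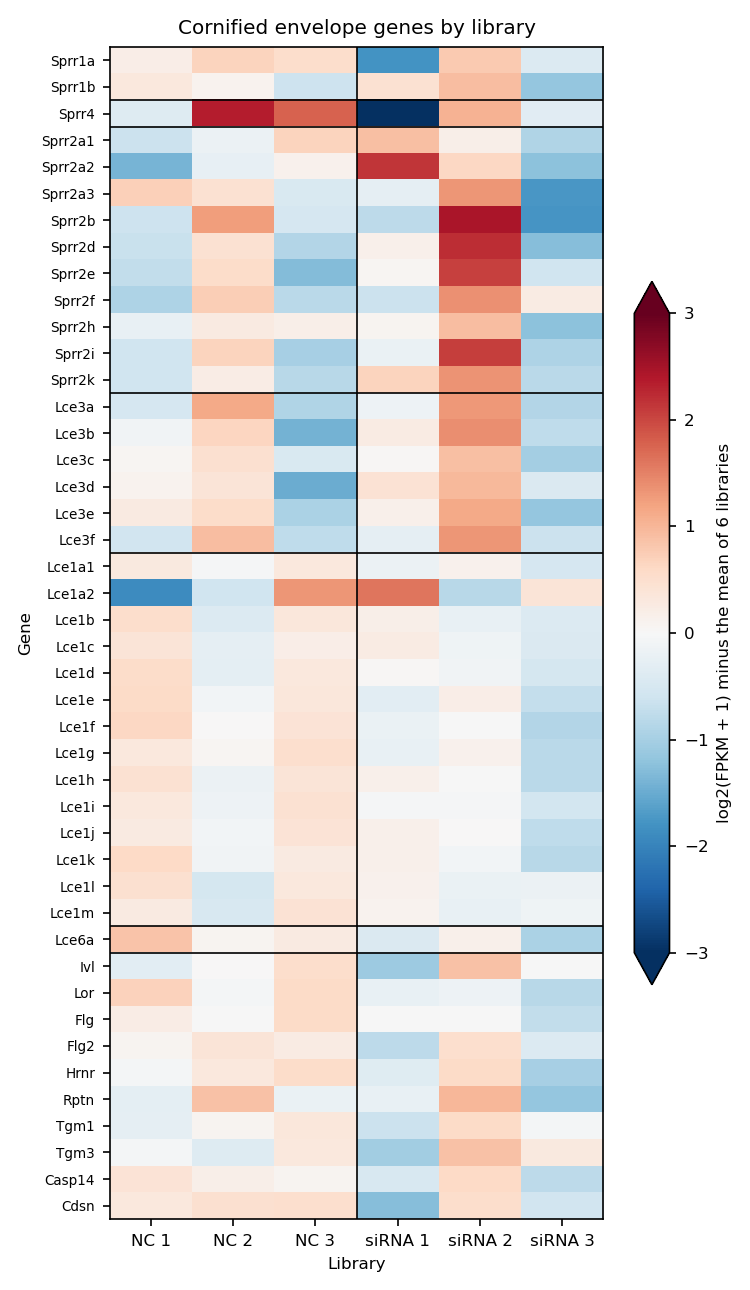
Log2(FPKM + 1) of the 44 genes in each library minus the mean of the 6 libraries (red above, blue below, clipped at 3 in either direction), with families separated by lines. SPRR2 and LCE3 genes are mostly red in SFRP2-siRNA 2, and 11 of 14 LCE1 genes have their lowest value in SFRP2-siRNA 3.

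Of the 2 scaffold genes, Lor and Ivl, Lor was the one whose groups did not overlap. Such genes, lower in SFRP2-siRNA, made up 4.55% of the envelope genes and 3.92% of all genes. Loricrin is the main protein of the mature envelope by mass. Lor (ENSMUSG00000043165) had 224.2, 133.0 and 205.6 FPKM in NC and 118.9, 125.0 and 77.8 FPKM in SFRP2-siRNA. Every NC library lay above every treated library, although NC 2 and SFRP2-siRNA 2 were close. Means were 188 ± 48.2 FPKM in NC and 107 ± 25.7 FPKM in SFRP2-siRNA (SD, n = 3 each), and the log2 fold change was -0.80 (SE 0.28, unadjusted p = 0.027, adjusted p = 0.518, limma), with an exact permutation p of 0.1. As for Lce1f, the groups did not overlap under any scaling tried, and leaving out a library cannot create an overlap. The adjusted p (limma) ranged from 0.282 to 0.843 over the scalings and omissions. Sprr2d divided by Lor, a stress-type over a mature component, was 0.156, 0.582 and 0.146 in NC and 0.526, 2.12 and 0.290 in SFRP2-siRNA, overlapping through NC 2.

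Ivl, which codes for involucrin, the early scaffold laid down beneath the membrane, had 26.1, 33.4 and 47.9 FPKM in NC and 15.0, 61.2 and 32.6 FPKM in SFRP2-siRNA. Its log2 fold change of -0.15 (SE 0.49) turned to 0.36 without SFRP2-siRNA 1. Among genes of the S100-fused family, which bind keratin filaments or join the envelope, Flg codes for filaggrin. It had 6.83, 5.68 and 9.06 FPKM in NC and 5.71, 5.71 and 3.04 FPKM in SFRP2-siRNA, and its log2 fold change was -0.51 (SE 0.25, adjusted p = 0.523, limma). Flg2 (-0.47, SE 0.32), Hrnr (-0.53, SE 0.39) and Rptn (-0.26, SE 0.57) also had lower means on the log2 scale, and all 4 overlapped between groups. Rptn, the gene of repetin, was highest in SFRP2-siRNA 2 and NC 2, at 41.8 and 38.5 FPKM, and had 8.56 to 17.7 FPKM in the other libraries.

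The cross-linking enzymes showed little difference. Tgm1, the membrane-bound transglutaminase of keratinocytes, had 19.1, 24.4 and 29.4 FPKM in NC and 14.4, 34.9 and 22.0 FPKM in SFRP2-siRNA. Tgm3, its soluble relative, had 12.5, 9.70 and 16.4 FPKM in NC and 5.81, 24.7 and 16.2 FPKM in SFRP2-siRNA. Both groups overlapped fully, and the log2 fold changes were -0.10 (SE 0.32) and 0.09 (SE 0.48), of which the second turned to -0.07 with median-of-ratios scaling. Casp14, a caspase that helps process filaggrin, had 45.1, 38.2 and 36.2 FPKM in NC and 24.0, 52.0 and 19.2 FPKM in SFRP2-siRNA, with -0.44 (SE 0.35). Cdsn codes for corneodesmosin, which holds cornified cells together, and had 92.6, 103.3 and 105.0 FPKM in NC and 29.9, 106.4 and 49.5 FPKM in SFRP2-siRNA. SFRP2-siRNA 1 and 3 were below all NC libraries and SFRP2-siRNA 2 above them, and the log2 fold change was -0.88 (SE 0.42, adjusted p = 0.523, limma).

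Genes that act beside the envelope were taken from 3 lists, in which 0 genes passed the test. Of 20 suprabasal and desmosomal genes 1 was higher and 19 lower, with a median of -0.35. Kprp, a keratinocyte proline-rich protein, had 31.1, 30.3 and 34.6 FPKM in NC and 16.9, 28.9 and 15.3 FPKM in SFRP2-siRNA without overlap (log2 fold change -0.68, SE 0.24, adjusted p = 0.518, limma). The suprabasal keratins Krt77 (-0.93, SE 0.48) and Krt10 (-0.83, SE 0.46) overlapped between groups. Krt2, also a suprabasal keratin, was the 1 higher gene of the list, at 1.01 (SE 0.62), with overlap. It was low, at 0.564 to 11.1 FPKM. Of 20 genes for barrier lipids and proteases 5 were higher and 15 lower, with a median of -0.21. Klk5 and Klk7, kallikreins that shed cornified cells, had log2 fold changes of -0.91 (SE 0.35) and -1.12 (SE 0.52), both with overlap.

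Of 26 regulators of keratinocyte differentiation, the AP-1 genes included, 12 were higher and 14 lower, with a median of -0.03. Maf had 9.44, 12.8 and 13.3 FPKM in NC and 15.3, 15.9 and 18.4 FPKM in SFRP2-siRNA (log2 fold change 0.46, SE 0.17, adjusted p = 0.518, limma). Its groups did not overlap. It is a keratinocyte differentiation factor that macrophages also express, and 6 of 6 macrophage markers were higher in SFRP2-siRNA as well. Which cells the Maf transcripts came from was not tested. Cebpb had a log2 fold change of 0.73 (SE 0.36) with overlap.

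Marker genes of the cell types in the wound were set beside these values, and none passed the test. The summed level of 8 basal keratinocyte markers was 2834 to 5213 FPKM in NC and 3216 to 6335 FPKM in SFRP2-siRNA, with 7 of 8 higher. That of 6 suprabasal markers was 1616 to 2210 FPKM in NC and 788.1 to 2279 FPKM in SFRP2-siRNA, with 5 of 6 lower and the lowest sum in SFRP2-siRNA 3, where 11 LCE1 genes were lowest. That of 8 wound-edge markers was 1682 to 3011 FPKM and 1522 to 3165 FPKM, with 4 higher and 4 lower. All 3 sums overlapped between groups. Keratinocyte markers were thus present in all libraries.

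All 9 inner root sheath markers had a lower mean log2 value in SFRP2-siRNA, and this count rests on SFRP2-siRNA 1. The list's median deviation from the NC mean was -6.57 there on the log2 scale, and 0.49 and 0.01 in SFRP2-siRNA 2 and 3. All 6 fibroblast markers were higher (822.6 to 1831 FPKM in NC, 2028 to 2118 FPKM in SFRP2-siRNA), as were all 6 macrophage markers (677.0 to 1253 FPKM and 1407 to 1849 FPKM). The 6 neutrophil markers were also higher, at 1135 to 1761 FPKM in NC and 984.6 to 5528 FPKM in SFRP2-siRNA, and were not all high in the same library. S100a9, with 4658 of the 5528 FPKM, and Mmp9 were highest in SFRP2-siRNA 2, whereas S100a8, Csf3r, Ly6g and Retnlg were highest in SFRP2-siRNA 1. The 4 skeletal muscle markers summed to 2543 to 4897 FPKM and 3217 to 9398 FPKM, highest in SFRP2-siRNA 3. The 5 adipocyte markers (1498 to 1954 FPKM and 768.5 to 2069 FPKM) were all lower, and of 6 sebaceous markers (215.5 to 278.7 FPKM and 206.5 to 311.3 FPKM) 4 were higher. No marker of these lists was at 0 in any library. The part of these cell types in the envelope results was not tested. Each library was also scaled to its basal keratinocyte markers, a choice made after the data were seen. Lor then had a log2 fold change of -1.03 and the LCE1 median was -0.63, both without a call. The median of all genes moved down too, from 0.13 to -0.05. Relative to it the LCE1 median was -0.57, against -0.52 as deposited.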

How the data were processed

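RNA-seq was performed on wound tissues of db/db mice, 3 libraries labelled NC and 3 labelled SFRP2-siRNA, grouped by the treatment labels. The authors deposited 1 table of FPKM values per gene, made with HISAT2 and featureCounts (Subread) per the submitters' processing notes. Versions, genome build, strand setting and the treatment of reads shared by gene copies are not given in the sources used here. Symbols were found for 32582 of 33184 genes. Sprr2g and Sprr2j-ps were left out because RefSeq does not list them as protein-coding.

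The 16005 genes whose mean reached 0.5 FPKM were analysed as log2(FPKM + 1) by limma 3.58.1 in R 4.3.3 (lmFit, then eBayes with trend). Tests were two-sided and p-values were adjusted by Benjamini-Hochberg over those genes. A call needed an adjusted p under 0.05 and an absolute log2 fold change above 1, the thresholds of the study's methods. Count models were not used on FPKM. On simulated data with 200 of 16005 genes changed by 2 on the log2 scale, limma recovered 87.6% with a mean of 4.2 false calls. The changed genes were drawn at random from all genes kept. Noise was drawn separately for each gene, so differences that many genes of a library share were not simulated. Changes smaller than 2 were not simulated either. The rate was not taken for SPRR genes alone, whose median standard error was 0.74. Groups did not overlap when every library of one lay above every library of the other. Exact permutation tests were two-sided.

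Gene lengths of GENCODE vM21 turned 98.5% to 98.6% of low values into whole reads, to within 0.02 of a read, which gave the totals. Of recovered values from 1 to 20 reads 67.2% were even, so mates of a pair were largely counted singly and reads are not independent molecules. The 50-base stretches of each gene's transcripts were compared with those of all other genes.

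The genes and lists were chosen with earlier results of these data known. The genes named were Sfrp2, the 10 other envelope genes, the 8 SPRR and 8 LCE genes with the highest mean level, up to 4 further envelope genes with the smallest p, and, for each of 3 lists, at most 3 genes of lowest p, of which some are not reported here. Envelope genes given beyond these were named to account for every gene of a family. Krt2 was added as the gene of its list that was higher. The alternatives changed the pseudocount (0.1), the filter (none, or 2 FPKM), the scaling (4 others), the trend (none), the library weights, the block (replicate number) or the libraries (each left out). Voom on recovered reads and scaling to basal keratinocyte markers were added after the data were seen.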

Additional observations from a re-analysis of the deposited data

How the results depend on the processing

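No envelope gene and no gene of the table was called under any of the alternatives, and the lowest adjusted p of a named gene was 0.257. Of 558 refits of the 31 named genes (30 envelope genes and Sfrp2), 529 kept their direction and 29 in 11 genes did not, 17 of these when 1 library was left out. The number of envelope genes whose groups did not overlap was 2. It became 5 under median-of-ratios scaling (11.4% of the genes, against 13.1% of all genes there), 6 under quantile normalization (13.6% against 12.5%), 7 under equal sums without abundant genes (15.9% against 10.7%) and 8 under scaling to basal keratinocyte markers (18.2% against 6.95%), the last chosen after seeing the data. The number with 1 library left out can only stay or rise, and was 2 to 17. It was 17 without NC 2 (38.6% of the genes, against 32.6% of all genes there), 12 without SFRP2-siRNA 2 (27.3% against 26.7%) and 6 without SFRP2-siRNA 3 (13.6% against 27.8%). The medians ranged from -0.25 to 0.76 for SPRR, -0.49 to -0.12 for LCE and -0.83 to -0.17 for the other envelope genes when 1 library was left out, and the SPRR median stayed 0.27 to 1.01 above the rest.

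Library weights, of which SFRP2-siRNA 2 received 5.27, took the median of the other envelope genes to 0.0775 and turned Casp14 (0.16), Ivl (0.44), Rptn (0.32), Sprr2a3 (0.65), Sprr2h (0.40) and Tgm1 (0.27). Sprr1b turned to -0.0147 with median-of-ratios scaling and -0.0881 with scaling to basal keratinocyte markers. Tgm3 turned to -0.0657, -0.0101, -0.0264 and -0.1226 with median-of-ratios, equal sums without abundant genes, quantile normalization and basal keratinocyte scaling. Leaving out 1 library turned Ivl (-0.62 to 0.36), Lce1m (-0.43 to 0.0205), Rptn (-0.82 to 0.26), Sprr1b (-0.28 to 0.76), Sprr2a3 (-1.25 to 0.29), Sprr2d (-0.20 to 1.55), Sprr2h (-0.65 to 0.41), Sprr2i (-0.25 to 1.25), Tgm1 (-0.41 to 0.20) and Tgm3 (-0.33 to 0.63). The cause was not tested. Whether the numbers pair the libraries was not settled. Deviations of same-numbered libraries from their group means correlated at -0.05, -0.15 and 0.38 for numbers 1, 2 and 3. These values were not set against those of differently numbered libraries. With the replicate number as a block 0 envelope genes were called, 2 did not overlap and the medians were 0.15, -0.31 and -0.46. Depth limits Sprr3 (0 to 4 reads), Sprr2b (7 reads at the lowest) and Lce3a (23 reads at the lowest).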
